A study of Rattus norvegicus with 16 samples.

Results

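Expression of 5 genes of salt and calcium handling along the thick ascending limb and the distal tubule, Slc12a1, Kcnj1, Slc12a3, Calb1 and Pvalb, was measured in both kidneys of 8 rats. They were chosen by gene symbol: every probe set (a group of oligonucleotides for a transcript) whose platform annotation gives only 1 of these symbols was taken, which gave 8 probe sets of 5 genes, out of 4736 genes with a symbol on the array. The right kidney had been given ACTH (adrenocorticotropic hormone) in 2 rats, rats 1 and 5, DEX in 2 rats, rats 3 and 7, and saline in 4 rats, rats 2, 4, 6 and 8, and within each animal the left kidney was the control. The labels leave DEX unexpanded. Groups follow the sample titles, which name 4 saline rats, although the design text counts 2 animals for each treatment. The labels state no dose, route, duration, age, sex or strain, so whether the hormones reached the left kidneys is not known, and a left kidney is not shown to be an untreated one. Each kidney was hybridised to 1 one-colour array, 16 in all.

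The thick ascending limb takes up sodium, potassium and chloride without water, which dilutes the urine and drives the concentrating gradient of the medulla. Slc12a1 encodes NKCC2, its furosemide-sensitive cotransporter, and Kcnj1 encodes ROMK, the potassium channel that returns potassium to the tubule fluid so that NKCC2 can keep turning, and that secretes potassium further downstream. Slc12a3 encodes NCC, the thiazide-sensitive sodium chloride cotransporter of the distal convoluted tubule, a segment under the control of corticosteroids. Calb1 encodes calbindin-D28k, which buffers calcium on its way across distal convoluted and connecting tubule cells, and Pvalb encodes parvalbumin, a calcium buffer of the early distal convoluted tubule.

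The sequences before the starts of the transporter and channel genes are shown because ACTH acts through cyclic AMP and through adrenal steroids, whose receptors bind DNA at their target genes. RefSeq (GRCr8) windows of 250 bases upstream were found for 4 of the 5 genes; Calb1 is named only. Slc12a1 has 2 annotated starts 69 bases apart on the plus strand of chromosome 3, and the first is shown (chr3:132859340-132859589). Kcnj1 has 2 listed starts 23649 bases apart on the plus strand of chromosome 8 (chr8:39037742-39037991 and chr8:39061391-39061640). Slc12a3 lies on the minus strand of chromosome 19 (chr19:10675051-10675300). The annotated Kcnj1 gene begins at 39014822 and the Slc12a3 gene at 10690008, so these windows lie inside the genes and are not before their outermost ends. Each runs 5′ to 3′ towards the start, and capitals mark the motifs searched on both strands, which are the TATA box TATAAA, the box named CCAAT after its letters, and the glucocorticoid receptor half-site AGAACA, which reads TGTTCT on the other strand.
Slc12a1 first start: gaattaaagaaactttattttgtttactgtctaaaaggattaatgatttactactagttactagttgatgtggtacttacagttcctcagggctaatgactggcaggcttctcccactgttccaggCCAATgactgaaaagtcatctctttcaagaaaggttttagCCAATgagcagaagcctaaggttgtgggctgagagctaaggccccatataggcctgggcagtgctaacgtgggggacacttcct
Kcnj1 upstream start: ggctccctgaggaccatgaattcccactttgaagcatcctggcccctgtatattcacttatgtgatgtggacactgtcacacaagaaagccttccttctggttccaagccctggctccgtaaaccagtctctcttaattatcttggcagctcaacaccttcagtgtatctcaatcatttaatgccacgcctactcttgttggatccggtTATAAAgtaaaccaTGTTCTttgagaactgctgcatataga
Kcnj1 downstream start: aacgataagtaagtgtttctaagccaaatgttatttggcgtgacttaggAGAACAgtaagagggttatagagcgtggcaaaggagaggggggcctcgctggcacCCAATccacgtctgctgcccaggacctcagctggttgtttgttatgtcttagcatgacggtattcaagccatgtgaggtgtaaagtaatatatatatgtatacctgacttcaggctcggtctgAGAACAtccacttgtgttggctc
Slc12a3: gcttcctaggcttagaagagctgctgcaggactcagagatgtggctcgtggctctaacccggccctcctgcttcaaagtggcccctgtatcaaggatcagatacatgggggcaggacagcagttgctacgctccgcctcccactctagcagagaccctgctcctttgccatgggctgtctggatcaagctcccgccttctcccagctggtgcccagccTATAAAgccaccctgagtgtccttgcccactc

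The windows differed in what they held. Slc12a3 had a TATAAA 32 to 27 bases before its start and the upstream Kcnj1 start had one 41 to 36 bases before it, a motif found in 12.9% of 33469 promoter windows of this length. The upstream Kcnj1 start had 1 AGAACA half-site and the downstream one had 2, against 17.5% of windows with any. The window of Pvalb, not shown (chromosome 7), also had 1. Slc12a1 had CCAAT at 2 places and the downstream Kcnj1 start had it at 1, 146 to 142 bases upstream, a motif in 34% of windows. The full glucocorticoid response palindrome, which holds a half-site on each strand with a 3-base gap and was in 0.012% of windows, and the cyclic AMP element TGACGTCA, in 1.59%, were in none of the 6 member windows. These are matches of letters, not sites of binding.

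Values are signals in linear units as deposited, and changes are right minus left differences of log2(signal + 16). Of the 8 member probe sets, 7 were among the 5244 tested of 8740; the Pvalb probe set, with a mean signal of 46.2, was under the brightness filter, which removed the lowest 40%. Signals of different probe sets are not comparable as levels, so each is read against itself. The array medians lay between 76.0 and 82.1. The 16 arrays formed 2 sets that the labels do not name, both kidneys of rats 5 to 8 and both kidneys of rats 1 to 4, and the first principal component, which separates them, held 45.7% of the variance. Each set holds 1 ACTH, 1 DEX and 2 saline rats, so results are also given within each. These are bulk kidney extracts, in which fewer cells of a type and less RNA per cell cannot be told apart.

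**Figure D1:**
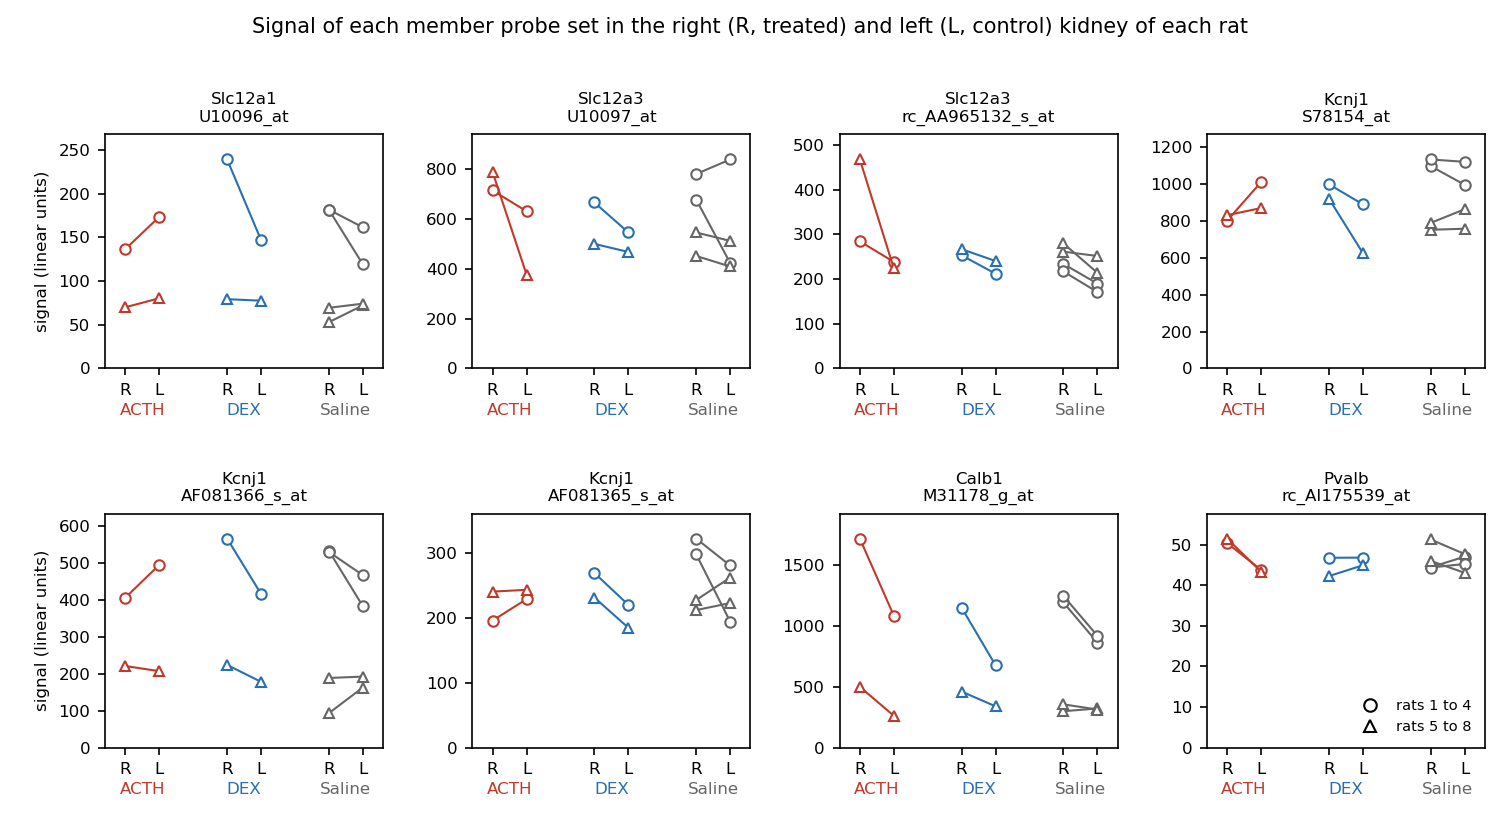
Signal in linear units of each member probe set (1 panel each, axis from 0) in the right (R) and left (L) kidney of each rat, with a line joining the kidneys of 1 animal, colours for the treatment and shapes for rats 1 to 4 (circles) and rats 5 to 8 (triangles). Slc12a1, Calb1 and the AF081366_s_at probe set of Kcnj1 were lower in rats 5 to 8 than in rats 1 to 4 in both kidneys, with no overlap, whereas the treatments overlapped.

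In the thick limb, Slc12a1 had no difference between treatments that passed the test. Its probe set (U10096_at) had signals of 137 and 70.0 in the right kidneys of ACTH rats 1 and 5, 239 and 79.2 in those of DEX rats 3 and 7, and 181, 182, 53.0 and 69.4 in those of saline rats 2, 4, 6 and 8. The left kidneys had 173 and 80.3 in the ACTH rats, 147 and 77.5 in the DEX rats, and 119, 161, 72.2 and 74.1 in the saline rats. The right kidney was the lower one in both ACTH rats and the higher one in both DEX rats, and the saline rats split 2 and 2. The right minus left change was −0.31 and −0.16 in ACTH rats, 0.65 and 0.03 in DEX rats, and 0.55, 0.16, −0.35 and −0.08 in saline rats. The saline range held both ACTH values and 1 of the 2 DEX values. The ACTH effect over saline, the change of ACTH rats minus that of saline rats, was −0.31 ± 0.24 (SE, limma adjusted p = 0.789), and the estimate for DEX was 0.27 ± 0.24 (adjusted p = 0.999). The ACTH effect minus the DEX effect was −0.58 ± 0.27 (adjusted p = 0.422). Rats 5 to 8 alone gave 0.05 for ACTH and −0.19 for ACTH minus DEX, and rats 1 to 4 alone gave −0.66 and −0.96. In rats 5 to 8 all signals of this probe set were at or under 80.3, near the lowest mean that was tested, 60.5.

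Kcnj1 was read by 3 probe sets, and in all of them the changes of both ACTH rats lay under those of both DEX rats. The brightest (S78154_at) had 799.8 and 829.8 in the right kidneys of ACTH rats, 997 and 919.5 in those of DEX rats, and 1095, 1131, 751 and 788 in those of saline rats. The left kidneys had 1009 and 868 in ACTH rats, 888 and 625 in DEX rats, and 994, 1119, 756 and 862 in saline rats. The left kidney of DEX rat 7 was the lowest of the 16, and both right kidneys of ACTH rats lay inside the range of the saline ones. The changes were −0.33 and −0.06 in ACTH rats, those of DEX rats were 0.16 and 0.55, and those of saline rats were 0.14, 0.02, −0.01 and −0.13, so both DEX rats lay above all 4 saline rats, as 6.08% of all tested probe sets did. For no member did both DEX rats lie below all saline rats (6.33% of tested probe sets). The DEX effect was 0.35 ± 0.17 (adjusted p = 0.999) and the ACTH effect −0.20 ± 0.17 (adjusted p = 0.818). With right kidneys only the DEX effect was 0.05 ± 0.15 (adjusted p = 0.9998). In left kidneys DEX over saline rats was −0.30 ± 0.12 (unadjusted p = 0.0323, limma adjusted p = 0.999).

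The difference of the hormones was −0.55 ± 0.20 for S78154_at, with an interval of −0.98 to −0.12, unadjusted p = 0.0167 and limma adjusted p = 0.305. Within rats 5 to 8 it was −0.61, and −0.49 within rats 1 to 4. With right kidneys only it was −0.23 ± 0.17 (adjusted p = 0.643). The other Kcnj1 probe sets, whose suffix _s marks probes that can match several transcripts, gave −0.46 ± 0.31 (AF081366_s_at, adjusted p = 0.637) and −0.40 ± 0.24 (AF081365_s_at, adjusted p = 0.572). ACTH rats below both DEX rats was a pattern that 19.8% of all tested probe sets showed. Thick ascending limb markers, 5 of 8 on the array with Slc12a1 and Kcnj1 among them, had the same order. With these members left out, Umod, Egf and Ptger3 remained, which are also among the thick limb partners described below. Their mean right minus left change was −0.45 for rat 1 and −0.26 for rat 5, both given ACTH. For rats 3 and 7, given DEX, it was 0.23 and 0.16. The saline animals lay between, from −0.10 to 0.13. The part of thick limb content in the Slc12a1 and Kcnj1 differences was not tested.

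The 3 Kcnj1 probe sets differed across animals. AF081366_s_at had 405 and 220.4 in the right kidneys of ACTH rats, 565 and 223 in those of DEX rats, and 531, 528, 188 and 93.2 in those of saline rats, with 494 and 206, 415 and 178, and 382, 466, 192 and 162 in the left kidneys of the same groups. Its values followed the set of the rat: every kidney of rats 5 to 8 was under every kidney of rats 1 to 4. AF081365_s_at stayed between 185 and 322 in all 16 kidneys, with 196 and 240.4 in the right kidneys of ACTH rats and 229 and 243 in their left. The changes of AF081366_s_at were −0.28 and 0.09 in ACTH rats, 0.43 and 0.31 in DEX rats, and 0.46, 0.18, −0.03 and −0.71 in saline rats. Those of AF081365_s_at were −0.21 and −0.02 in ACTH rats, 0.27 and 0.30 in DEX rats, and 0.58, 0.19, −0.19 and −0.07 in saline rats. In both probe sets the DEX rats lay inside the saline range. The ACTH effects of AF081366_s_at and AF081365_s_at were −0.07 ± 0.27 and −0.24 ± 0.21 (limma adjusted p = 0.975 and 0.818), and their DEX effects were 0.39 ± 0.27 and 0.16 ± 0.21 (adjusted p = 0.999 for both).

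**Figure D2:**
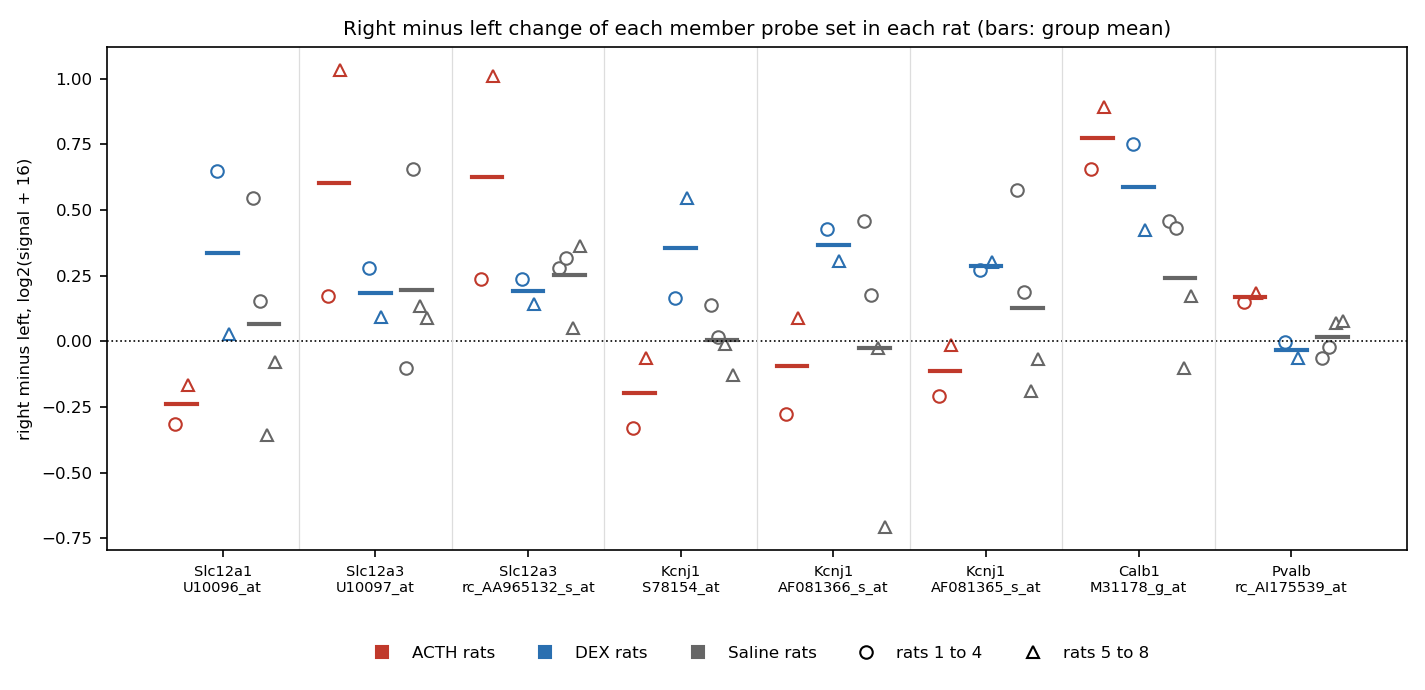
Right minus left change of log2(signal + 16) for each member probe set, with 1 point per rat, ACTH and DEX rats left of saline rats, and bars for group means. Both ACTH rats lie under both DEX rats for Slc12a1 and the 3 Kcnj1 probe sets, and 1 ACTH rat, rat 5, lies far above the other animals for both Slc12a3 probe sets at 1.03 and 1.01.

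In the distal convoluted tubule, the cotransporter Slc12a3 had its largest right minus left change in 1 ACTH rat. The U10097_at probe set had 713 and 787 in the right kidneys of ACTH rats 1 and 5, 665 and 499 in those of DEX rats, and 779, 676, 450.4 and 544 in those of saline rats. The left kidneys had 629.6 and 376 in ACTH rats, 545 and 467 in DEX rats, and 837, 423, 408 and 511 in saline rats. Rat 5 combined the highest right signal with the lowest left signal of all. Its change was 1.03, against 0.17 in ACTH rat 1, 0.28 and 0.09 in DEX rats, and −0.10, 0.66, 0.14 and 0.09 in saline rats.

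The other Slc12a3 probe set (rc_AA965132_s_at) also had its largest change in rat 5. The right kidneys had 284 and 467 in ACTH rats, 253 and 267 in DEX rats, and 233, 217, 261 and 279 in saline rats, and the left kidneys had 238 and 224, 212 and 240.1, and 189.8, 171, 251 and 214 in these groups. The right kidney was the higher one in 8 of 8 rats, a pattern of 2.25% of the tested probe sets, with changes of 0.24 and 1.01 in ACTH rats, 0.24 and 0.14 in DEX rats, and 0.28, 0.32, 0.05 and 0.36 in saline rats. The ACTH effects were 0.41 ± 0.25 and 0.37 ± 0.21 (limma adjusted p = 0.682 and 0.609) and the DEX effects −0.01 ± 0.25 and −0.06 ± 0.21 (adjusted p = 0.999 for both). ACTH minus DEX was 0.42 ± 0.29 for U10097_at and 0.43 ± 0.24 for rc_AA965132_s_at (limma adjusted p = 0.664 and 0.512).

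Rat 5 decided the Slc12a3 values. Without it the ACTH effects were −0.02 and −0.01, and without rat 1 they were 0.84 and 0.76. Rats 5 to 8 alone gave 0.92 and 0.80, and rats 1 to 4 alone gave −0.10 and −0.06. Markers of the collecting duct and medulla, 9 of 9 listed genes on the array and none at 0, moved with it: their mean change was 0.60 in rat 5 and −0.18 in rat 1, against −0.17 and −0.00 in DEX rats and −0.13, −0.06, 0.03 and 0.23 in saline rats. Their summed signal was 3787 to 6970 in the right kidneys of ACTH rats, 3971 to 4747 in those of saline rats and 3850 to 4711 in left kidneys. With that marker score as a covariate the ACTH effects of U10097_at and rc_AA965132_s_at were 0.26 ± 0.24 and 0.22 ± 0.17, and with the adipose marker score, described with Calb1, they were 0.91 ± 0.31 and 0.54 ± 0.29 (adjusted p = 0.239 and 0.461). Distal convoluted and connecting tubule markers, 5 of 7 on the array, leave Klk1 and S100g when the members are taken out. Their mean change was −0.05 in rat 1 and 0.08 in rat 5. It was −0.12 and −0.38 in DEX rats, and −0.16, 0.03, −0.09 and 0.07 in saline rats. The part of any of these marker groups in the result was not tested.

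Calb1 was the member whose signal differed between the kidneys beyond the threshold. In the right kidneys M31178_g_at had 1715 and 499 in ACTH rats, 1148 and 459.8 in DEX rats, and 1191, 1244, 299 and 355 in saline rats. In the left kidneys it had 1083 and 261 in ACTH rats, 675 and 339 in DEX rats, and 862, 918, 321 and 313 in saline rats. The right kidney was the higher one in 7 of 8 rats, saline rat 6 being the exception, while right and left signals overlapped across animals. How many tested probe sets were higher in 7 of 8 rats was not counted. Right over left estimates were positive for 52.3%, 54.0% and 55.8% of them within ACTH, DEX and saline rats. The changes were 0.66 and 0.89 in ACTH rats, 0.75 and 0.42 in DEX rats, and 0.46, 0.43, −0.10 and 0.17 in saline rats, so that both ACTH rats lay above all saline rats, as 7.82% of tested probe sets did. For no member did both ACTH rats lie below all saline rats (7.84% of tested probe sets).

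Within ACTH rats Calb1 rose 1.71-fold in the right kidney over the left (0.77 ± 0.16, limma adjusted p = 0.0243), and it was the 1 of 7 member probe sets called there, beside 3.57% of all tested probe sets. At an unadjusted p under 0.05 there were 3 of 7, Calb1 and both Slc12a3 probe sets, beside 18.4%. The call was lost without rat 5 (0.66, adjusted p = 0.169) and with no term for the rat (0.82, adjusted p = 0.743). Against saline, the ACTH effect was 0.53 ± 0.20, with an interval of 0.10 to 0.96, unadjusted p = 0.0195 and limma adjusted p = 0.392. Rats 5 to 8 alone gave 0.85 and rats 1 to 4 alone gave 0.21. The DEX effect was 0.35 ± 0.20 (adjusted p = 0.999), and ACTH minus DEX was 0.19 ± 0.23 (adjusted p = 0.848). Adipose markers, 8 of 9 on the array and none at 0, also moved in these animals, with mean changes of 1.48 and 0.39 in ACTH rats, −1.13 and −1.08 in DEX rats, and 0.36, −0.34, −0.92 and 0.15 in saline rats. Their summed signals were 1904 to 12205 in right kidneys of ACTH rats, 1183 to 1528 in those of DEX rats and 1205 to 1850 in those of saline rats. With the adipose score as a covariate the Calb1 ACTH effect was 0.40 ± 0.28, and the part of fat in the result was not tested. Of the other marker lists, smooth muscle and mesangium set both ACTH rats above all others, with 6 of 6 genes on the array and none at 0. Its mean changes were 0.25 and 0.36 in ACTH rats, −0.14 and −0.09 in DEX rats, and −0.08, −0.03, −0.04 and 0.02 in saline rats, and its summed signals were 1243 to 1312 in right kidneys of ACTH rats, 1016 to 1102 in those of DEX rats, 862 to 988 in those of saline rats and 870.5 to 1159 in left kidneys. Leukocyte markers, 4 of 6 on the array and none at 0, had mean changes of −0.44 and −0.33 in ACTH rats, −0.15 and −0.19 in DEX rats, and 0.10, 0.04, 0.05 and −0.05 in saline rats, with summed signals of 1135 to 2303 in right kidneys of ACTH rats, 2084 to 2347 in those of DEX rats, 1741 to 2365 in those of saline rats and 1610 to 2684 in left kidneys. Their part in the result was not tested.

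Pvalb had flat and dim signals. They were 50.4 and 51.5 in right kidneys of ACTH rats, 46.8 and 42.3 in those of DEX rats and 44.4, 44.4, 46.0 and 51.3 in those of saline rats, and between 43.1 and 47.7 in the 8 left kidneys. The changes of 0.15 and 0.19 in ACTH rats exceeded those of every DEX rat, −0.00 and −0.06, and of every saline rat, −0.06, −0.02, 0.07 and 0.08, patterns of 18.5% and 7.82% of the probe sets that were tested. The fit without the brightness filter gave an ACTH effect of 0.15 ± 0.12 (limma adjusted p = 0.883) and a DEX effect of −0.05 ± 0.12 (adjusted p = 0.999), with 0.20 ± 0.14 for ACTH minus DEX (adjusted p = 0.765). The deposited table used here carries no detection calls, so whether this signal is above background is not known.

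**Figure D3:**
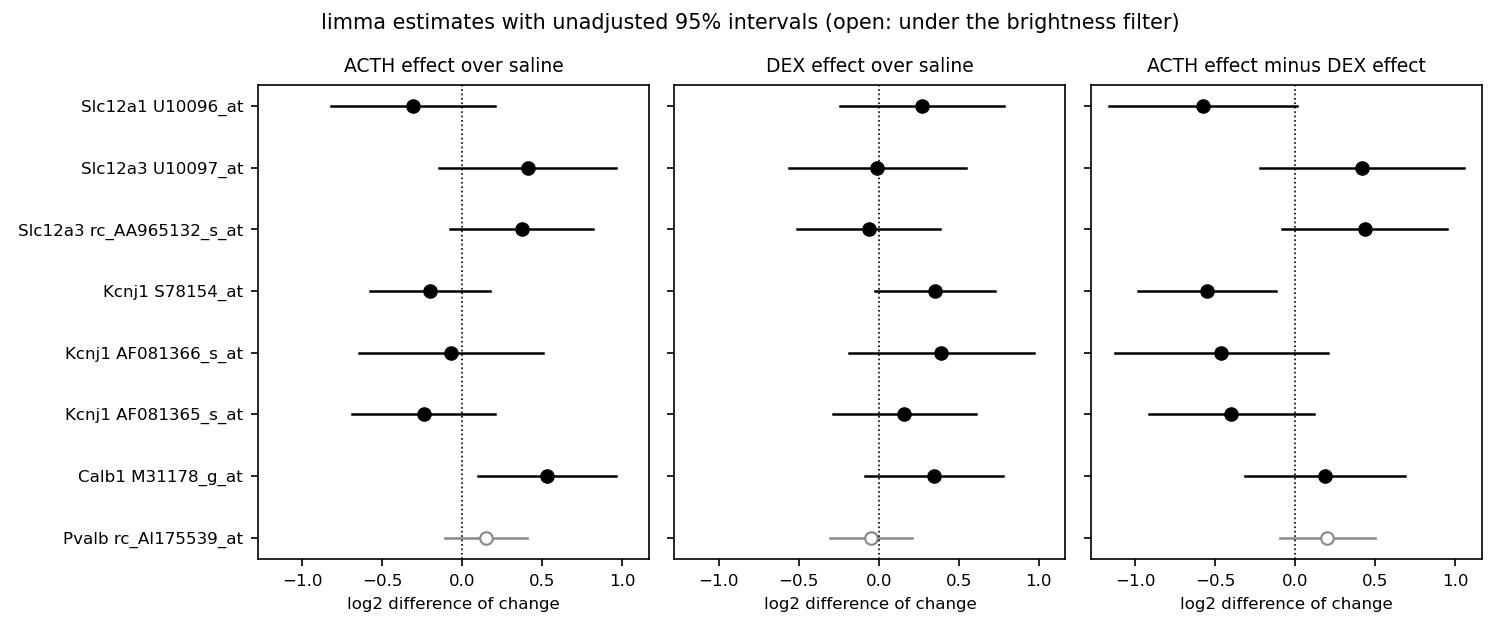
limma estimates for each member probe set with unadjusted 95% intervals, in panels for ACTH over saline, DEX over saline and ACTH minus DEX; the x axis is the log2 difference of change, and the open symbol is Pvalb, from the fit without the filter. The intervals of Calb1 in the ACTH panel (0.10 to 0.96) and of S78154_at of Kcnj1 in the difference panel (−0.98 to −0.12) leave out 0, and neither passes adjustment.

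Over the set as a whole, 0 of 7 tested member probe sets were called by limma in the ACTH effect, beside 0.496% of all tested probe sets, and 1 had an unadjusted p under 0.05, beside 9.44%. For the DEX effect the counts were 0 called, beside 0%, and 0 unadjusted, beside 2.94%. For ACTH minus DEX 0 were called, beside 0.572%, and 1 unadjusted, beside 12.2%. The medians over the 7 member probe sets were −0.07, 0.27 and −0.40 in these comparisons, beside −0.00, −0.00 and 0.02 over all tested probe sets. Kcnj1 counts 3 times in them. With 1 probe set for each of the 4 tested genes the medians were 0.10, 0.31 and −0.18, so the sign for ACTH depends on this choice. The comparisons share the saline rats or the hormone rats, so they are not separate samples of evidence.

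Right over left, 6 of 7 member probe sets had positive estimates within saline rats, beside 55.8% of all tested probe sets. Within ACTH rats 3 of 7 did, beside 52.3%. The 7 hold 3 probe sets of Kcnj1 and 2 of Slc12a3. Within DEX rats all 7 had positive estimates, where 54.0% of all tested probe sets did. The largest was Calb1 at 0.59 ± 0.16 (unadjusted p = 0.00333, limma adjusted p = 0.46), followed by AF081366_s_at of Kcnj1 at 0.37 ± 0.22 (adjusted p = 0.873). 0 of 7 were called, beside 0%, and 2 had an unadjusted p under 0.05, beside 5.91%. Within saline rats 0 of 7 were called by limma, beside 0%, with 0 at an unadjusted p under 0.05, beside 3.74%. Calb1 and rc_AA965132_s_at of Slc12a3 had 0.24 ± 0.11 and 0.25 ± 0.12 there (adjusted p = 0.9998 for both). Within ACTH rats the Slc12a3 probe sets had 0.60 ± 0.21 and 0.63 ± 0.17 (limma adjusted p = 0.131 and 0.0635).

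In the left kidneys alone, 0 of 7 member probe sets were called by limma between ACTH and saline rats, beside 0%, and 0 had an unadjusted p under 0.05, beside 1.96%. Between DEX and saline rats 0 were called, beside 0%, and 1 had an unadjusted p under 0.05, S78154_at of Kcnj1, beside 3.13%. The ACTH over saline differences of the members lay between −0.10 ± 0.24 for U10097_at of Slc12a3 and 0.21 ± 0.13 for AF081366_s_at of Kcnj1.

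Of the 9 comparisons fitted, the largest member estimates were between the sets of rats. In left kidneys Calb1 averaged 309 ± 33.2 in rats 5 to 8 and 885 ± 168 in rats 1 to 4 (SD, n = 4 each), a log2 difference of −1.46 ± 0.15. AF081366_s_at of Kcnj1 averaged 185 ± 18.9 in rats 5 to 8 and 439 ± 50.2 in rats 1 to 4, a difference of −1.18 ± 0.11. Slc12a1 averaged 76.0 ± 3.62 in rats 5 to 8 and 150.2 ± 23.4 in rats 1 to 4, a difference of −0.84 ± 0.11. In all of these every left kidney of rats 5 to 8 was under every one of rats 1 to 4, as was S78154_at of Kcnj1, a pattern of 16.2% of tested probe sets. In right kidneys the pattern held for Slc12a1, AF081366_s_at and Calb1, beside 15.3%. No member had every one of rats 5 to 8 above every one of rats 1 to 4, a pattern of 19.6% of tested probe sets in left kidneys and 20.6% in right kidneys.

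The sets did not shift all members alike. S78154_at of Kcnj1 differed by −0.37 ± 0.10, and AF081365_s_at by −0.02 ± 0.13. U10097_at of Slc12a3 had −0.42 ± 0.20 where its other probe set had 0.19 ± 0.11, and Pvalb had −0.02 ± 0.08. By limma adjusted p, 4 of 7 were past 0.05, beside 34.2% of all tested probe sets, and the same number had an unadjusted p under 0.05, beside 45.5%; since the sets were noticed in these data, this count is a description. Whether the sets are batches, litters or something else is not stated in the labels.

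**Figure D4:**
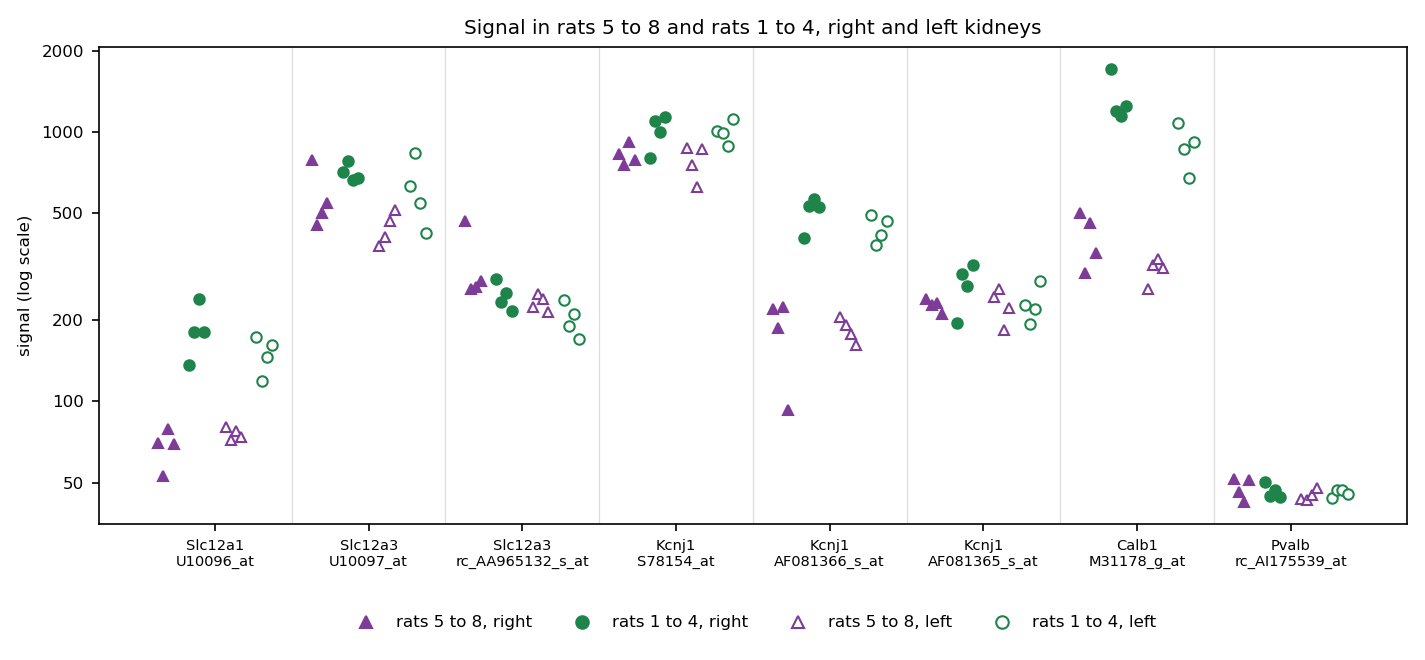
Signal on a log scale of each member probe set in rats 5 to 8 (triangles) and rats 1 to 4 (circles), with filled symbols for right and open symbols for left kidneys. Calb1, AF081366_s_at of Kcnj1 and Slc12a1 separate by set in both kidneys, and AF081365_s_at of Kcnj1, Slc12a3 and Pvalb overlap.

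Partners of the members were described from lists of named genes. Of 17 thick limb partners 8 were tested, and 0 were called in the 3 hormone comparisons. Their ACTH effects were negative for 7 of 8 (median −0.16) and their DEX effects positive for 7 of 8 (median 0.18), beside 49.9% and 49.5% positive over all tested probe sets. ACTH minus DEX was negative for 8 of 8 (median −0.34), where 53.0% of all tested probe sets were positive, and 4 had an unadjusted p under 0.05, beside 12.2%. Proximal tubule markers were negative there for 9 of 11 as well (median −0.16). Egf, the growth factor precursor made in the thick limb and distal convoluted tubule, had −0.73 ± 0.21 for ACTH (adjusted p = 0.194) and 0.37 ± 0.21 for DEX (adjusted p = 0.999), a difference of −1.10 ± 0.24 (limma adjusted p = 0.0663). Its DEX effect was 0.06 without rat 3 and 0.68 without rat 7. The first Egf probe set had signals of 591 and 659.7 in right kidneys of ACTH rats, 1195 and 1058 in those of DEX rats and 1323, 1049, 957 and 1068 in those of saline rats. The left kidneys had 1114 and 1060.3 in ACTH rats, 770 and 1052 in DEX rats, and 1452, 872, 1124 and 1151 in saline rats. Both ACTH right kidneys were thus under all DEX and saline right kidneys. How many tested probe sets show this pattern was not counted. The other Egf probe set (U04842_at) had the same signs and smaller sizes, with −0.54 for ACTH, 0.16 for DEX and −0.70 for the difference. Casr, the calcium-sensing receptor that restrains salt uptake there, had −0.62 ± 0.21 for ACTH (adjusted p = 0.308) and −0.60 ± 0.24 for the difference (adjusted p = 0.349). Its changes were −0.92 in ACTH rat 1 and −0.24 in ACTH rat 5. Those of DEX rats were −0.00 and 0.04, and those of saline rats were −0.08, 0.33, −0.00 and −0.09. The Casr ACTH effect was −0.28 without rat 1 and −0.96 without rat 5, each on a lone ACTH rat. Umod, the gene of uromodulin, had −0.21 ± 0.15 for ACTH and 0.20 ± 0.15 for DEX.

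Of 16 distal convoluted and connecting tubule partners 7 were tested, and 0 were called, with medians of 0.06, −0.06 and 0.02 in the 3 hormone comparisons. Klk1, tissue kallikrein of the connecting tubule, had 0.40 ± 0.14 for ACTH (adjusted p = 0.381), −0.34 ± 0.14 for DEX (adjusted p = 0.999) and 0.74 ± 0.17 for their difference (limma adjusted p = 0.0774). Its changes were 0.28 and 0.71 in ACTH rats, −0.22 and −0.26 in DEX rats, and 0.11, 0.06, 0.06 and 0.18 in saline rats, with no overlap between the 3 groups, a pattern of 1.85% of tested probe sets. Without rat 5 the ACTH effect was 0.18. Without rat 1, which leaves rat 5 as the lone ACTH rat, it was 0.61 and the difference 0.95. Atp2b1, a plasma membrane calcium pump, had −0.31 ± 0.13 for ACTH (adjusted p = 0.464), −0.08 ± 0.13 for DEX and −0.23 ± 0.15 for the difference.

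The sodium pump genes, which energise uptake by all these cells, had 5 of 8 tested, 0 called and 0 with an unadjusted p under 0.05 in any of the 3, with medians of 0.03, 0.01 and 0.10. The smallest p-values among them were those of the beta subunits Atp1b3, with −0.25 ± 0.18 for ACTH and −0.29 ± 0.21 for ACTH minus DEX, Atp1b1, with 0.19 ± 0.14 for DEX and −0.19 ± 0.16 for the difference, and Atp1b2, with −0.14 ± 0.16 for DEX, and of the gamma subunit Fxyd2, with 0.11 ± 0.20 for ACTH. All 5 collecting duct genes of the list had positive ACTH effects (median 0.23), where 49.9% of all tested probe sets did, with 0 called, and the sodium channel subunits Scnn1a and Scnn1b had 0.45 ± 0.19 and 0.38 ± 0.17 (adjusted p = 0.464 and 0.502) for ACTH, and 0.43 ± 0.22 and 0.35 ± 0.20 for ACTH minus DEX. Rat 5, whose collecting duct and medulla score changed by 0.60, had the larger changes for Scnn1a, Scnn1b and Aqp2. In ACTH rats 1 and 5 they were 0.18 and 0.81 for Scnn1a, 0.24 and 0.65 for Scnn1b, and −0.39 and 0.89 for Aqp2. For the subunit Scnn1g rat 1 had the larger one, 0.39 against 0.14. Scnn1b, Scnn1g, Aqp2 and Avpr2 are themselves part of that score, so it is not a separate observation on them. Without rat 5 the ACTH effects of Scnn1a, Scnn1b and Aqp2 were 0.14, 0.18 and −0.48, against 0.16 ± 0.28 with it for Aqp2. For DEX the smallest p-values there were those of the subunit Scnn1g, 0.14 ± 0.14, and the water channel Aqp2, −0.11 ± 0.28. The 2 tested relatives of the cotransporters, Slc12a4 and Slc12a7, had ACTH effects of −0.05 ± 0.18 and −0.10 ± 0.16, DEX effects of −0.22 ± 0.18 and 0.01 ± 0.16, and differences of 0.17 ± 0.21 and −0.11 ± 0.18. Of 6 tested calcium-binding EF-hand genes 0 were called, and S100a1 had an ACTH effect of 0.52 ± 0.24 (adjusted p = 0.522) and S100g one of −0.29 ± 0.17. S100a4 had a DEX effect of −0.77 ± 0.36 and Calm2 of 0.12 ± 0.17, and in ACTH minus DEX S100a1 had 0.65 ± 0.28 and S100a4 0.86 ± 0.42 (adjusted p = 0.373 and 0.436). The S100a1 changes were 0.13 and 1.10 in ACTH rats 1 and 5. Its ACTH effect was 0.03 without rat 5 and 1.00 without rat 1, each on a lone ACTH rat. Its difference was 0.16 without rat 5 and 1.14 without rat 1, and the S100a4 difference 0.15 and 1.57.

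Among 12 tested regulators of the cotransporters, catalytic subunits of protein phosphatase 1 were called. In ACTH minus DEX, Ppp1cb was lower by limma (−1.51 ± 0.28, adjusted p = 0.0351), and so was Ppp1cc (−1.19 ± 0.21, adjusted p = 0.0331). The other Ppp1cb probe set had −0.88 ± 0.28. For ACTH Ppp1cb and Ppp1cc had −0.52 ± 0.24 and −0.42 ± 0.19, and for DEX 0.98 ± 0.24 and 0.78 ± 0.19, with 0 regulators called in either. The signals of Ppp1cb were 363 and 99.8 in right kidneys of ACTH rats, 449.9 and 242 in those of DEX rats and 371, 379.9, 170.5 and 178 in those of saline rats, with 435 and 216, 177 and 169, and 415, 409.8, 172 and 198 in the left kidneys of these groups. The left kidney of DEX rat 3 was thus far under those of the other rats 1 to 4, and for Ppp1cc it had 391 against 665 to 716. With right kidneys only, or with no replicate block, the differences were −0.73 and −0.56 and neither was called (limma adjusted p = 0.213 and 0.214, and 0.994 and 0.982). Leaving out 1 rat ended the Ppp1cb call in 7 of 8 cases, all but rat 1, and the Ppp1cc call in 5 of 8, those of rats 2, 3, 4, 5 and 7. These were 2 of 12 regulators, beside 0.572% of all tested probe sets, and both were already known from these data when the list was drawn up. The median regulator had −0.08 in that comparison, 0.08 for ACTH and 0.12 for DEX.

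**Figure D5:**
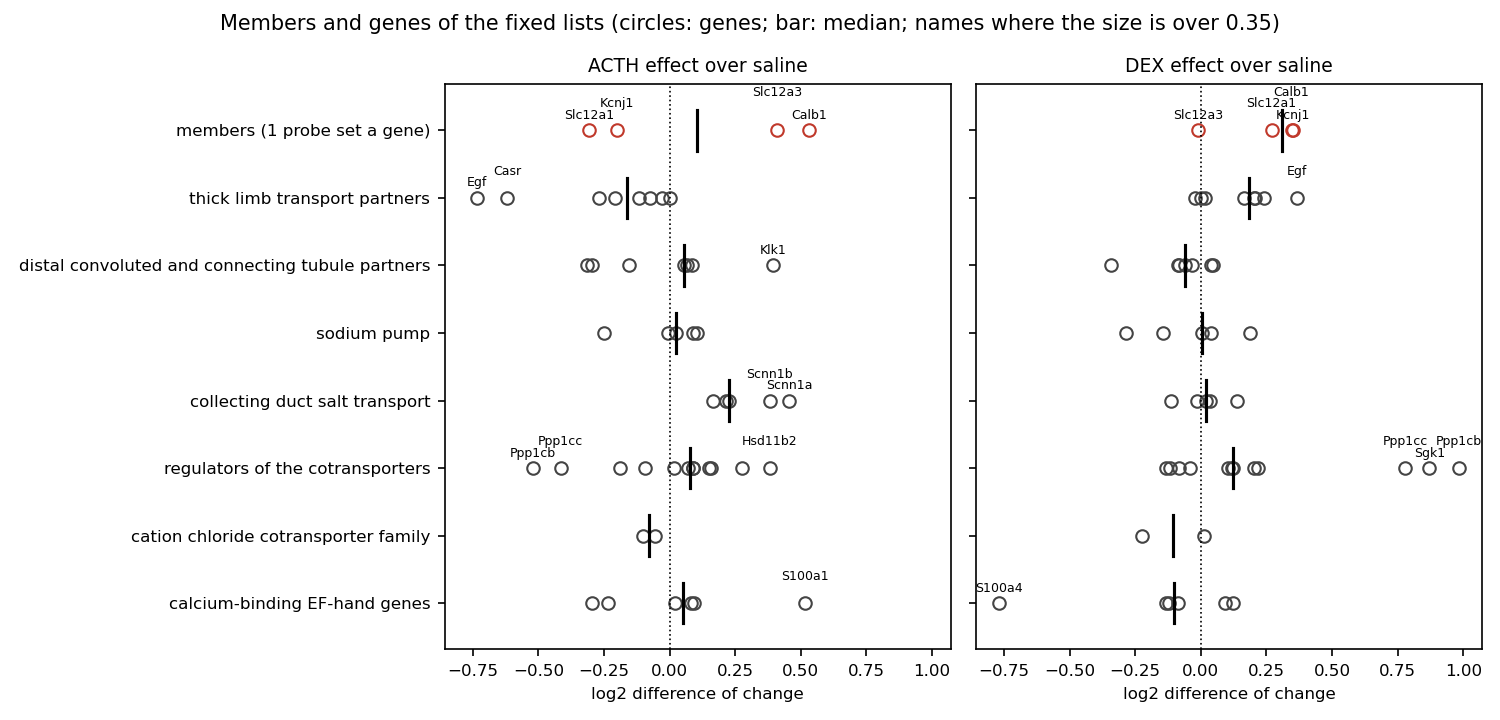
Estimates for the members and for the genes of the fixed lists, with 1 circle per gene and a bar for each list's median. Panels show the ACTH effect and the DEX effect, and the x axis is the log2 difference of change. Names are given for members and where the size is over 0.35. Of the thick limb partners, 7 of 8 lie left of 0 in the ACTH panel and 7 of 8 right of 0 in the DEX panel. Distal convoluted and connecting tubule partners lie on both sides in each panel.

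The tested genes whose right minus left changes over the 8 rats were most like a member's, by Pearson correlation over 3189 genes, are given as a description over 8 points from shared arrays. For Slc12a1 they were Srsf2, Ankra2 and Aftph (0.96, 0.96 and 0.95). For U10097_at of Slc12a3 they were Ppox, Fuca1 and Man2b1 (all 0.97), and for its other probe set Gpx2, Hsd11b2 and Eif4e2 (all 0.97). The Kcnj1 probe sets had no gene in common: Snn, Stk38 and Inpp5d (0.87, 0.87 and 0.85) for S78154_at, Pcnx3, Gstp1 and Mep1a (0.93, 0.92 and 0.89) for AF081366_s_at, and Camk2d, Ylpm1 and Ss18 (0.95, 0.88 and 0.88) for AF081365_s_at. For Calb1 they were Pgk1, Mdh2 and Eno1 (0.96, 0.90 and 0.90), and for Pvalb Gata1, Fn3k and Nupr1 (all 0.91).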

How the data were processed

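RNA from both kidneys of 8 rats was measured on 16 one-colour arrays, 1 array per kidney. Per the labels' protocols, total RNA was extracted with Tri-Reagent, cleaned on RNeasy columns and made into biotin-labelled cRNA. The table as deposited holds 1 linear-scale signal intensity per probe set and array. How the authors processed the scans, software and normalization included, is not given in the sources used here. Nothing in the labels dates or batches the arrays. The number of arrays, not depth, limits the precision. The array annotation names no genome build, and RefSeq sequences are of GRCr8. No 2 arrays held identical values, and array correlations were 0.951 to 0.994.

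Groups came from the sample titles. Of the deposited rows 59 are control probe sets, which were dropped to leave 8740; log2(signal + 16) was then taken, and the lowest 40% by mean (3496) were left out, leaving 5244. Of the 8740, a single symbol was annotated for 7006, more than 1 for 308 and none for 1426. limma 3.58.1 in R 4.3.3 fitted a term for each rat, the right kidney, and ACTH and DEX in it, with an intensity trend (residual degrees of freedom 5, prior 7.34). A second fit on the 8 left kidneys had the set of rats and treatment (4, prior 5.46). Tests were two-sided, with Benjamini-Hochberg adjustment over all 5244 in each of 9 comparisons, with a threshold of 0.05. Where a lone hormone rat remains, it is assumed to vary like the others. The labels pair the kidneys by animal, and the deviations of the 2 kidneys of a rat from their group means correlated at 0.535 to 0.693 in all 8 rats. On simulated data, 96% and 99.5% of 200 probe sets changed by 1 and 2 log2 units in the ACTH effect were recovered among 5244, with 18 and 15 false calls. The simulation gave both ACTH rats the same effect and independent noise, so it does not cover hormone rats that differ from each other. Effects under 1 log2 unit were not simulated, and the largest member ACTH effect was 0.53, so the recovery of effects of that size is not known.

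The members, the 7 lists of partners and the 12 lists of cell type markers were chosen with earlier results of these data known. All member probe sets are given in every hormone comparison, each gene represented by its brightest. Of each list, genes called in a hormone comparison are named, with the 2 of smallest p in each, and the 3 genes most like each member. Alternatives were another pseudocount (1, 64), filter, scaling, no intensity trend, no block, right kidneys only, marker scores as covariates, the set of rats, and each rat left out.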

Additional observations from a re-analysis of the deposited data

Results flagged for a closer look

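For 4 member probe sets, both ACTH rats changed to one side of 0 between right and left kidney and both DEX rats to the other. How many of all tested probe sets do so was not counted. The looser patterns, both ACTH rats below or above both DEX rats, held for 19.8% and 18.5% of them. Slc12a1 changed by 0.03 in DEX rat 7 and Pvalb, under the brightness filter, by −0.00 in DEX rat 3, both near 0. ACTH minus DEX was −0.58 for Slc12a1, −0.55 for S78154_at of Kcnj1, −0.40 for AF081365_s_at of Kcnj1 and 0.20 for Pvalb. The difference itself was tested in limma, and the adjusted p-values of 0.422, 0.305, 0.572 and 0.765 did not pass. By Dixon's gap test at its 95% critical values, no value stood apart for any member among the 8 left kidneys, the 4 right kidneys of saline rats or the 4 saline changes; the largest gap, 0.754 of the range, was that of Pvalb in right kidneys of saline rats.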

How the results depend on the processing

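No member probe set passed in the ACTH effect, the DEX effect or their difference under any alternative run. The direction of Slc12a1, S78154_at and AF081365_s_at of Kcnj1, Calb1 and Pvalb held for the ACTH effect, and of Slc12a1 and the 3 Kcnj1 probe sets for ACTH minus DEX, under every alternative over all rats. Of 987 member values over all rats or with 1 left out, 61 changed sign and 9 others changed their side of the threshold, and of 48 within 1 set of rats 11 changed sign. In rats 5 to 8 these were the ACTH effects of Slc12a1 (0.052) and of S78154_at, AF081366_s_at and AF081365_s_at (0.0048, 0.46 and 0.11). In rats 1 to 4 they were the ACTH effects of Slc12a3 (−0.10 and −0.058), the DEX effects of U10097_at (0.0013), AF081365_s_at (−0.11) and Pvalb (0.040), and ACTH minus DEX for U10097_at (−0.10) and Calb1 (−0.096). The cause of these changes was not tested.

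Within ACTH rats, the count of member probe sets called right over left was 1. It was 0 with no replicate block, where Calb1 had 0.82 (adjusted p = 0.743), and 0 to 3 with 1 rat left out: 0 without rat 5, and 3 without rat 1, when both Slc12a3 probe sets were also called (1.03 and 1.01, adjusted p = 0.0279 and 0.00873) on rat 5 alone. Between the sets of rats it was 4 and 3 to 4; S78154_at of Kcnj1 was lost without rat 3, 4, 6 or 7, and U10097_at of Slc12a3 was called without rat 4 (−0.62). Of 21 context genes named, leaving out 1 rat moved 18 of the ACTH effects, 16 of the DEX effects and 15 of the differences by over 1.5 times. The calls of Ppp1cb and Ppp1cc were also lost with the adipose score (−1.88 and −1.09). The count over all probe sets was 26 for the ACTH effect, 6 to 97 under other settings and 9 to 115 with 1 rat left out. For ACTH minus DEX it was 30, with 0 to 91 and 2 to 99, and for right over left in ACTH rats 187, with 51 to 170 and 119 to 272.

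With no replicate block, and with right kidneys only, signs changed for the ACTH effect on AF081366_s_at of Kcnj1 (0.14) and the DEX effects on rc_AA965132_s_at of Slc12a3 (0.070) and AF081365_s_at of Kcnj1 (−0.061). With no replicate block AF081366_s_at was 0.068 right over left in ACTH rats and Slc12a1 −0.00044 in saline rats. With the adipose score, AF081366_s_at was 0.070 for ACTH and Calb1 −0.048 for ACTH minus DEX. With the collecting duct score the DEX effects on Slc12a3 were 0.069 and 0.017, and with median scaling U10097_at was 0.0092. With quantile normalization, right over left was 0.0087 for Pvalb in DEX rats and −0.041 for S78154_at in saline rats; in left kidneys S78154_at and Calb1 were −0.024 and −0.022 for ACTH, and AF081366_s_at and Pvalb 0.024 and −0.00060 for DEX.

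With 1 rat left out, ranges that crossed 0 were as follows. For the ACTH effect they were −0.021 to 0.84 and −0.013 to 0.76 for Slc12a3, and −0.30 to 0.11 for AF081366_s_at. For the DEX effect they were −0.041 to 0.58 for Slc12a1 and −0.11 to 0.15 for U10097_at, and for ACTH minus DEX −0.012 to 0.85 for U10097_at. Right over left they were −0.28 to 0.088 for AF081366_s_at in ACTH rats, and in saline rats −0.092 to 0.21 for Slc12a1, −0.040 to 0.048, −0.19 to 0.20 and −0.023 to 0.23 for the Kcnj1 probe sets and −0.0039 to 0.043 for Pvalb. In left kidneys, ACTH over saline, they were −0.30 to 0.10 and −0.021 to 0.35 for Slc12a3, −0.083 to 0.12 for S78154_at, −0.12 to 0.077 for AF081365_s_at and −0.34 to 0.36 for Calb1. For DEX over saline there they were −0.017 to 0.14 for Slc12a1, −0.25 to 0.13 for U10097_at, −0.062 to 0.049 for AF081366_s_at, −0.48 to 0.18 for Calb1 and −0.018 to 0.025 for Pvalb. Between the sets of rats AF081365_s_at had −0.13 to 0.071.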
